A study of Mus musculus with 16 samples.

Results

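The genes that encode the proteins of the cytoplasmic ribosome were followed in mouse embryonic fibroblasts as the cultures passed out of proliferation into quiescence, with and without a mutation of Zac1. Members were all rows of the count table whose symbol starts with Rpl or Rps and a number, or is Rplp0, Rplp1, Rplp2 or Rpsa, leaving out the S6 kinases and hyphenated symbols. This gave 86 of the 23100 genes in the table. They were 46 proteins of the large subunit, 31 of the small subunit, 8 paralogs of other members and Rps19bp1, which the symbol rule admits although its product is a nucleolar protein that binds Rps19 and is not a part of the ribosome.

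The cells were fibroblasts of C57BL/6 embryos at day E13.5, kept in DMEM with 10% serum. The mutant cells were Zac+/- and the wildtype cells Zac+/+, with 2 lines of each genotype. The sample titles label the mutant lines KOpat and the wildtype lines WT. Every line was harvested as quiescent culture at days 8, 10 and 12 in vitro and as proliferative culture at day 2, which gave 16 libraries of total RNA. Zac1, now named Plagl1, codes for a transcription factor with zinc fingers, and as an imprinted gene it is read from the paternal copy. A genotype is represented here by a pair of lines, and what the letters I and L of the lines stand for was not known.

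Each ribosome is assembled from a large and a small subunit, and each subunit needs most of its proteins in equal numbers. Growing cells spend much of their transcription and translation on ribosomes. Many of the mRNAs that encode ribosomal proteins begin with a run of pyrimidines at their 5′ end, which ties their translation to the mTOR pathway, and the transcription factor Myc is a known activator of ribosomal protein and ribosome assembly genes.

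The sequences around the transcription starts were read for letters that members have in common, and for letters that differ between members with large and small decreases. Windows of 30 bases before the start and 20 after it are given for members with large decreases in quiescence (Rpl18, Rpl7a, Rps2, Rpsa and Rpl36al) and for members with small ones (Rps28, Rpl39 and Rpl22l1), read 5′ to 3′ from RefSeq on GRCm38.p6. The deposited counts were made on mm9, so these positions belong to the reference alone. Capitals mark the longest run of C and T inside the 20 bases on either side of the start, and a run is counted only as far as that stretch goes.
Rpl18, chr7:45718041-45718090, plus strand: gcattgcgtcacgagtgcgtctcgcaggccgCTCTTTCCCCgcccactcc
Rpl7a, chr2:26910777-26910826, plus strand: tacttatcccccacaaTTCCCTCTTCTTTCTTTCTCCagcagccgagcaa
Rps2, chr17:24720033-24720082, plus strand: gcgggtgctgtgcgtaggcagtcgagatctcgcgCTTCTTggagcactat
Rpsa, chr9:120127736-120127785, plus strand: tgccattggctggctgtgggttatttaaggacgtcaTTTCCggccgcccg
Rpl36al, chr12:69184048-69184097, minus strand: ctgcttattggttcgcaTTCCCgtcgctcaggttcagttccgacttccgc
Rps28, chr17:33824543-33824592, minus strand: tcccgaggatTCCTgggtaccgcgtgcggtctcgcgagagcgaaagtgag
Rpl39, chrX:37085203-37085252, minus strand: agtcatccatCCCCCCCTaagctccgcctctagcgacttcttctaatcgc
Rpl22l1, chr3:28805478-28805527, plus strand: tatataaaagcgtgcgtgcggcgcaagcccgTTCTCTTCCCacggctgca

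A start was listed in the RefSeq table for 65 of the 86 members, of which 10 had more than 1. A run of at least 8 C or T on the coding strand within 20 bases of the start was found for 30 of the 65 (46.15%), against 4965 of all 27025 genes with a listed start (18.37%). The motif CTTTCC on the coding strand, sought over the same stretch, was present in 16.92% of the members and 2.298% of all genes, and it can lie inside such a run. CCGGAAG, sought on both strands from 250 bases before the start to 50 after it, was present in 40.0% of the members and 9.928% of all genes. Over the same 300 bases and both strands CACGTG was present in 9.231% and 8.093%, and GCCATCTT in 9.231% and 3.19%.

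Members with and without such a run within 20 bases of the start had close medians. The stretch searched includes bases before the start, where the run of Rpl39 lies. The comparison is therefore not one of mRNAs that begin with pyrimidines against others. Rpl18 and Rpl22l1 both carry a run of 10 pyrimidines at the start, and they stood near opposite ends of the range in wildtype cells, at log2 changes of -0.88 and -0.29 in quiescence. The median log2 change in wildtype cells was -0.62 over the 30 tested members with a run and -0.65 over the 32 without. It was -0.62 over the 25 tested members with CCGGAAG and -0.63 over the 37 without. TATAAA on the coding strand in the 50 bases before the start was found in Rpl22l1 alone among the 65 members (1.538%, against 3.149% of all genes). These letters describe the windows searched and say nothing of a factor bound there.

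The libraries held 28079241 to 61039793 counts, so that 3 counts equal 0.0491 to 0.107 per 1e6 counts of the unscaled library total. CPM in the rest of the text are counts per 1e6 of the TMM-scaled library. All 10 fibroblast markers had a mean above 5 CPM over the summed libraries (each line's day 2 library and its quiescent sum). They summed to 57870 to 59350 CPM in mutant quiescent and 25620 to 26150 CPM in mutant proliferative cultures. In the same states of the wildtype they summed to 49510 to 53700 CPM and 23210 to 24210 CPM. The 12 macrophage and blood markers summed to 38.8 to 320.0 CPM in mutant quiescent and 9.45 to 103 in mutant proliferative cultures. In the wildtype they summed to 56.2 to 192 in quiescent and 16.9 to 79.1 in proliferative cultures. Hence 2 lines of a group could differ several times in that sum, and its part in the results was not tested. Plagl1 measured 47.4 and 51.5 CPM in the quiescent sums of the mutant lines, against 200.9 and 163 CPM in those of the wildtype lines, and 9.05 and 7.56 CPM in proliferative mutant lines, against 44.7 and 37.4 CPM in proliferative wildtype lines. Plagl1 was thus lower in the lines labelled mutant in both states. The day 12 library of mutant replicate 2 stood apart among the ribosomal protein genes: the SD of their log2 deviations was 0.29 there, against 0.0588 to 0.171 in the other 15 libraries, over 73 subunit genes with a mean above 50 CPM.

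The 73 subunit genes with a mean above 50 CPM had means of 302 CPM (Rpl36) to 1964 CPM (Rplp0). Rplp0, the base of the stalk that recruits translation factors, ranged from 1506 to 2690.1 CPM over the 16 libraries. Per kilobase of the GENCODE M21 transcript the order was Rpl41 at 3019 CPM per kb, Rplp1 at 2918, Rps24 at 2299, Rpl10 at 1966, Rpl23a at 1965 and Rps18 at 1907. The range over libraries of each of these genes overlapped that of its neighbour, as for Rpl41 (2199 to 4236) and Rplp1 (1751 to 4282), so that the order of neighbours is not fixed. Annotated transcripts of 5179 bases for Rps15a and 3706 bases for Rps20 made the values of both genes per kilobase low, and they were left out of this order.

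A few members had almost no counts although their proteins belong to the ribosome. Rpl26 is listed at 0 in all 16 libraries. Rpl30 is listed at a mean of 1.57 CPM, Rpl34 at 2.31 CPM and Rps27 at 2.05 CPM; the other subunit genes had means above 50 CPM. Near-identical processed copies of many ribosomal protein genes lie elsewhere in the genome, and the sources used here do not say how reads that match several places were counted, so the levels and changes of these 4 rows are uncertain. Among the paralogs, Rpl10l, a gene of the testis, had 1 count in all libraries together, and Rpl3l, a gene of striated muscle, had 22 counts. These 2 and Rpl26 did not pass the filter on low counts, which left 83 members among the 15740 genes tested.

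Quiescent cells of both genotypes held less ribosomal protein mRNA, as a share of all counts, than proliferative cells of the same line. In mutant replicate 1 the share was 7.08% at day 2, 5.47% at day 8, 6.03% at day 10 and 4.66% at day 12. In mutant replicate 2 it was 7.51%, 5.84%, 6.34% and 5.86% on the same days. In wildtype replicate 1 it was 8.61%, 6.39%, 5.55% and 5.51%, and in wildtype replicate 2 it was 7.67%, 6.17%, 5.51% and 5.15%. Every quiescent library lay below every day 2 library, and the mutant lines had a higher share at day 10 than at day 8 while the wildtype lines had a lower one. In bulk RNA, fewer cells of a type and less RNA per cell cannot be told apart.

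**Figure D1:**
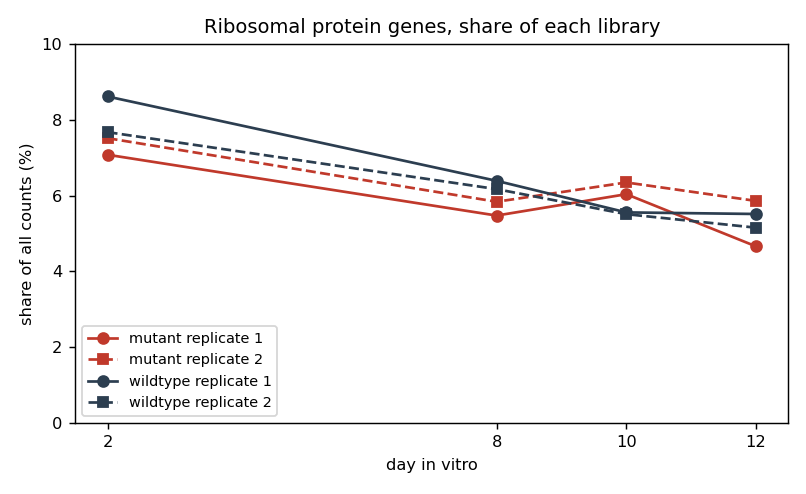
Share of all counts (%) that fell on the 86 ribosomal protein genes, by day in vitro; each line joins the 4 harvests of 1 cell line, red for mutant and dark blue for wildtype. The day 2 values of 7.08% to 8.61% lie above all later ones, and at day 10 both mutant lines (6.03% and 6.34%) lie above both wildtype lines (5.55% and 5.51%).

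The comparison of quiescent with proliferative cells asked how the members respond when growth stops, and it was made on the sum of the 3 quiescent harvests of each line against its day 2 library. In the mutant, 46 of the 83 members tested were lower in quiescence and 0 were higher (edgeR's quasi-likelihood test, Benjamini-Hochberg adjusted p under 0.05), against 21.0% of all tested genes lower and 21.1% higher. The median log2 change of the members was -0.36, a change of -22.2%, and that of all genes 0.05. In the wildtype, 77 of the 83 were lower and 0 were higher, against 23.7% of all genes lower and 23.9% higher. The median was -0.62, a change of -34.9%, with all genes at 0.05, and all 83 members had a negative value.

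All 46 members that passed in the mutant also passed in the wildtype, a further 31 passed in the wildtype alone, and 6 (Rpl22l1, Rpl30, Rpl34, Rpl39l, Rps27 and Rps4y2) passed in neither. Passing in 1 genotype and not in the other does not show a difference between them; the direct test is given further on. The count in the wildtype was 32 when wildtype replicate 1 was left out, against 13.7% of all genes, and 61 when replicate 2 was, against 14.7%. The count in the mutant was 21 when mutant replicate 1 was left out, against 16.1% of all genes, and 22 when replicate 2 was, against 14.3%. In these fits the remaining line of a group is assumed to vary like the other groups. With day 10 alone as the quiescent harvest 26 members passed in the mutant, against 19.3% of all genes.

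The medians of large and small subunit genes lay close together, and the difference between the subunits was not tested. Of the 45 large subunit genes tested, 23 fell in the mutant, with a median of -0.35, and 43 in the wildtype, with a median of -0.61. Of the 31 small subunit genes, 19 fell in the mutant, with a median of -0.37, and 30 in the wildtype, with a median of -0.61. Of all tested genes, 21.0% fell and 21.1% rose in the mutant, and 23.7% fell and 23.9% rose in the wildtype. Over the 16 libraries, the log2 level of a member followed the median of the other 82 with a median Pearson r of 0.94 (n = 16 libraries, which share lines and states); r was above 0.9 for 53 members and below 0.5 for 3, namely Rps27, Rpl39l and Rpl30. The cycling cell markers moved with the state as well. All 19 were lower in quiescence in both genotypes, with summed levels of 761 to 796 CPM in mutant quiescent and 2897 to 2938 CPM in mutant proliferative cultures, against 744 to 753 CPM and 3058 to 3280.0 CPM in the same states of the wildtype. Epithelial markers summed to 9.70 to 11.7 CPM in mutant quiescent and 56.5 to 64.7 CPM in mutant proliferative cultures. In the same states of the wildtype they summed to 11.5 to 12.4 CPM and 69.2 to 70.1 CPM. Over all summed libraries, 2 of the 8 had a mean above 5 CPM and none had a mean of 0. Of 6 tested, 5 fell and 1 rose in the mutant, and 4 fell and 1 rose in the wildtype. Endothelial markers summed to 3.25 to 5.83 CPM in mutant quiescent and 14.5 to 18.6 CPM in mutant proliferative cultures, and to 3.51 to 5.92 CPM and 18.2 to 19.4 CPM in the same states of the wildtype, with 1 of the 6 at 0. Of 4 tested, 1 fell and 1 rose in the mutant, and 2 fell and 1 rose in the wildtype. With 4 genes, these counts cannot be told apart from the shares of all genes given above. Of the 10 fibroblast markers tested, 7 rose and 2 fell in each genotype. Of the 10 macrophage and blood markers tested, 0 passed in either genotype. The part of these cell markers in the change of the ribosomal protein genes was not tested.

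**Figure D2:**
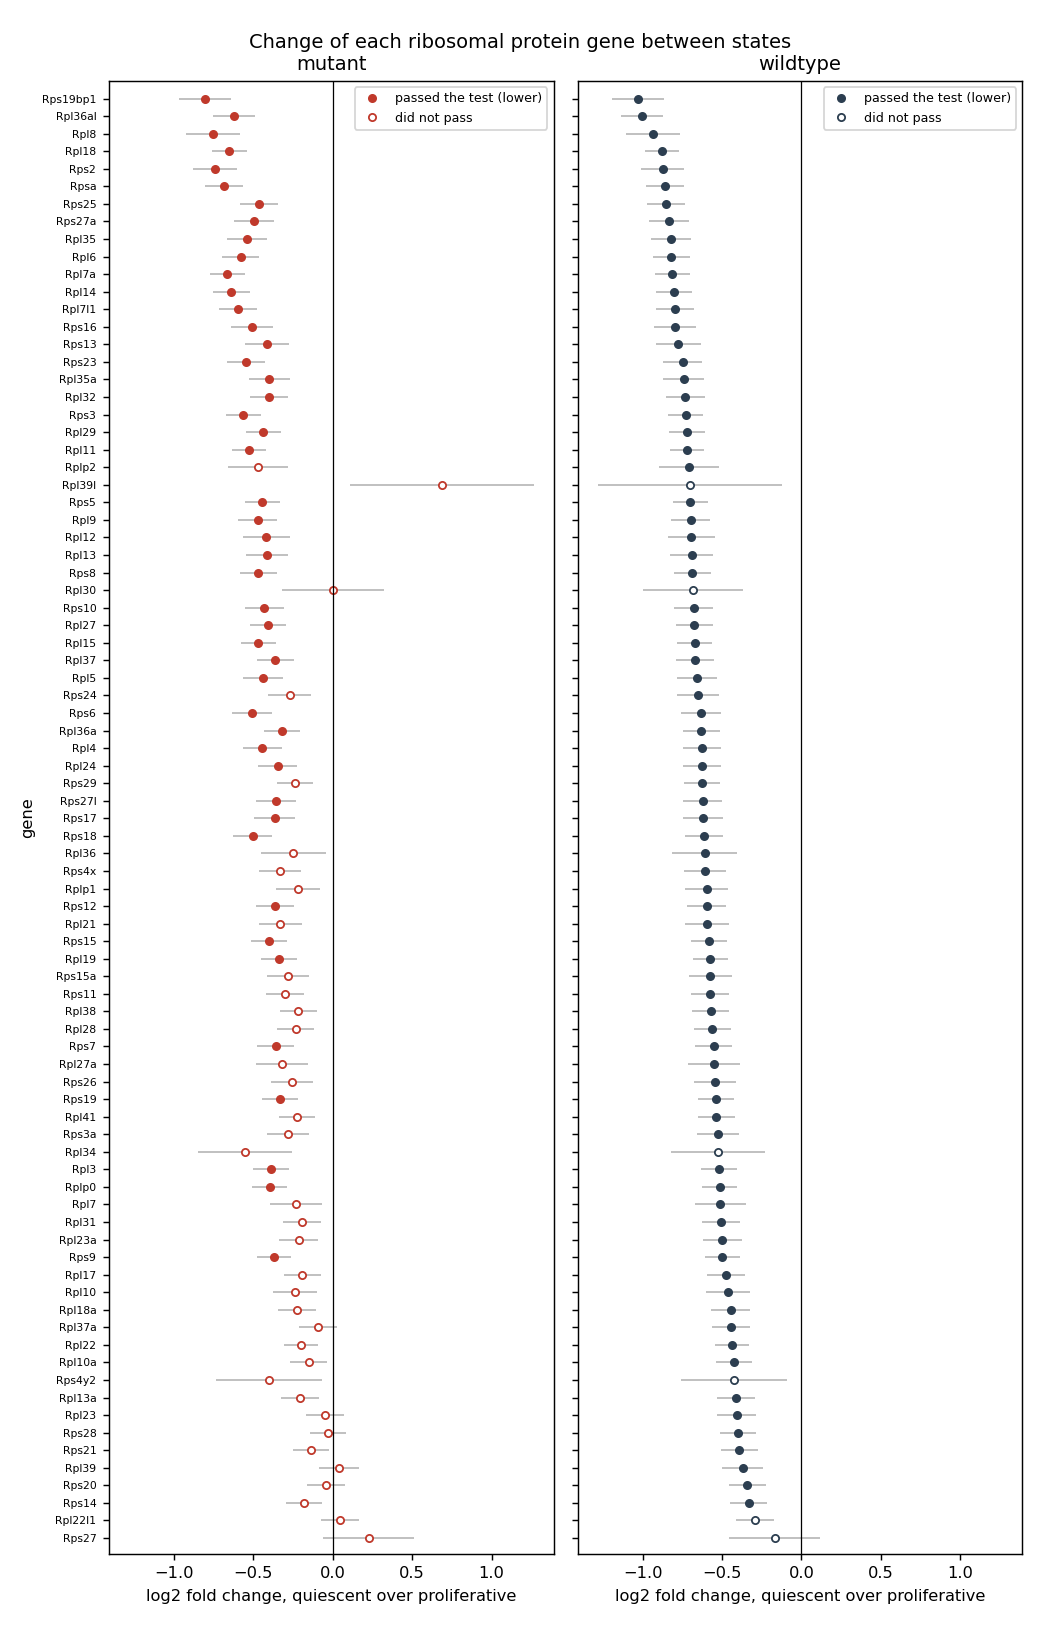
Log2 fold change of each of the 83 tested members, quiescent over proliferative, in mutant (left) and wildtype (right) cells, with bars for the SE of the fit; filled points passed the test and open points did not, and genes are ordered by the wildtype value. All wildtype points lie left of 0, with a median of -0.62, and 5 mutant points lie at or right of 0, none of which passed.

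Among small subunit genes, the largest decreases were those of Rps2 and Rpsa. Rps2 lies at the mRNA entry of the small subunit. It had 724 and 722 CPM in the quiescent sums of mutant replicates 1 and 2, against 1032 and 1383 CPM at day 2, and 696 and 644 CPM in those of wildtype replicates 1 and 2, against 1249.9 and 1207 CPM at day 2. The states did not overlap in either genotype, and the log2 change was -0.74 (SE 0.138, edgeR adjusted p = 0.00198) in the mutant and -0.87 (SE 0.138, adjusted p = 0.00061) in the wildtype. Rpsa, also known as the laminin receptor, had 1348 and 1576 CPM in quiescent mutant lines, against 2259.6 and 2445 CPM in proliferative ones, and 1379 and 1354 CPM in quiescent wildtype lines, against 2639 and 2316 CPM in proliferative ones. It too did not overlap between states, and its log2 change was -0.69 (SE 0.119, edgeR adjusted p = 0.00133) in the mutant and -0.86 (SE 0.12, adjusted p = 0.000281) in the wildtype.

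Among large subunit genes, Rpl8, Rpl18 and Rpl7a are described, and in the wildtype Rpl35 and Rpl6, both at -0.82, lay between Rpl18 and Rpl7a. Rpl8, a protein next to the peptidyl transferase centre, had 491 and 481 CPM in quiescent mutant lines, against 649 and 988 CPM in proliferative ones, and 461 and 426 CPM in quiescent wildtype lines, against 873 and 821 CPM in proliferative ones. The decrease was uneven between the mutant lines, and the log2 change of -0.75 in the mutant (SE 0.172, edgeR adjusted p = 0.00631) was -0.39 with an adjusted p of 0.0997 without mutant replicate 2; in the wildtype it was -0.93 (SE 0.172, adjusted p = 0.00162). Rpl18, one of the genes with 10 pyrimidines at the start, had 555 and 593 CPM in quiescent mutant lines, against 886 and 918 CPM in proliferative ones, and 553 and 512 CPM in quiescent wildtype lines, against 1039.8 and 917 CPM in proliferative ones. Its lines stayed close together within each state and fell by 0.65 on the log2 scale in the mutant (SE 0.109, edgeR adjusted p = 0.00108) and by 0.88 in the wildtype (SE 0.11, adjusted p = 0.000143). Rpl7a, whose start holds a run of 21 pyrimidines, changed by -0.66 and -0.81 in the mutant and the wildtype.

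Small changes were found in another group, which the naming rule and known roles chose. Outside it, Rpl23 and Rpl37a had values of -0.05 and -0.10 in the mutant, which did not pass, and fell by 0.41 and 0.44 in the wildtype. Rpl39, a small protein that lines the exit tunnel, had 555 and 685 CPM in quiescent mutant lines, against 558 and 648 CPM in proliferative ones, and 588 and 619.7 CPM in quiescent wildtype lines, against 800.3 and 759.6 CPM in proliferative ones. The states overlapped in the mutant, with a log2 change of 0.04 (SE 0.129, edgeR adjusted p = 0.828), and they did not overlap in the wildtype, with -0.37 (SE 0.129, adjusted p = 0.0388). The wildtype call was lost under 7 of 16 alternatives, among them library totals without TMM factors (adjusted p = 0.0894).

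Rps20, Rps21 and Rps14 of the small subunit showed log2 changes of -0.04, -0.14 and -0.18 in the mutant, none of which passed, and fell by 0.34, 0.39 and 0.33 in the wildtype. These 3 wildtype calls were lost when either wildtype line was left out, with edgeR adjusted p of 0.284 and 0.144 for Rps20, 0.216 and 0.0845 for Rps21 and 0.294 and 0.131 for Rps14. With the line as a block, the wildtype change of Rps14 missed the threshold (edgeR adjusted p = 0.051). Rps28 had 446 and 499 CPM in quiescent mutant lines, against 464 and 501 CPM in proliferative ones, and 519 and 462 CPM in quiescent wildtype lines, against 665 and 629.6 CPM in proliferative ones. The mutant states overlapped at a log2 change of -0.03 (SE 0.112, edgeR adjusted p = 0.849), while in the wildtype Rps28 fell by 0.40 (SE 0.112, adjusted p = 0.0147).

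Members with known roles outside or beside the ribosome were spread over this range. Rpl5 and Rpl11, which bind Mdm2 together with 5S RNA when ribosome assembly is disturbed, changed by -0.44 and -0.53 in the mutant and by -0.66 and -0.72 in the wildtype, and all 4 values passed the edgeR test, the highest adjusted p being 0.0184 for Rpl5 in the mutant. Rps6, the substrate of the S6 kinases, fell by 0.51 in the mutant and by 0.64 in the wildtype. Rps27a, which is made as a fusion with ubiquitin, fell by 0.50 and 0.83. Rps19 fell by 0.33 and 0.54, while Rps19bp1, whose product binds Rps19, was a low gene with 9.08 and 8.75 CPM in quiescent mutant lines, against 13.3 and 17.7 CPM in proliferative ones, and 8.50 and 7.71 CPM in quiescent wildtype lines, against 16.8 and 16.4 CPM in proliferative ones. Its states did not overlap, and its log2 changes were the lowest of all members in both genotypes, -0.80 (SE 0.163, edgeR adjusted p = 0.00322) in the mutant and -1.03 (SE 0.163, adjusted p = 0.000616) in the wildtype. The mutant value was -0.38 with day 10 alone as the quiescent harvest (adjusted p = 0.157) and -0.54 without mutant replicate 2 (adjusted p = 0.0845).

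The 6 paralogs that passed the filter did not follow their parents in all cases. Rpl36al, a near copy of Rpl36a with which it may share reads, had 123 and 153 CPM in quiescent mutant lines, against 228 and 197 CPM in proliferative ones, and 129 and 132 CPM in quiescent wildtype lines, against 279 and 244 CPM in proliferative ones. It did not overlap between states, and the log2 change was -0.62 (SE 0.133, edgeR adjusted p = 0.00435) in the mutant and -1.002 (SE 0.134, adjusted p = 0.000211) in the wildtype; Rpl36a changed by -0.32 and -0.63. Rpl7l1 fell by 0.60 in the mutant and by 0.80 in the wildtype, beside values of -0.23, which did not pass, and -0.51 for Rpl7.

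Rpl22l1, whose level is known in mice to rise when its parent Rpl22 is lost, had 121 and 148 CPM in quiescent mutant lines, against 125 and 135 CPM in proliferative ones, and 141 and 139 CPM in quiescent wildtype lines, against 179 and 164 CPM in proliferative ones. The mutant states overlapped, with a log2 change of 0.04, and the wildtype change of -0.29 (SE 0.119, edgeR adjusted p = 0.0666) passed only in some alternatives, such as DESeq2 (adjusted p = 0.0475). Rpl22 itself had a value of -0.20 in the mutant, which did not pass, and fell by 0.44 in the wildtype. Rps27l, a p53 target gene, had 231 and 256 CPM in quiescent mutant lines, against 283 and 341 CPM in proliferative ones, and 224 and 249 CPM in quiescent wildtype lines, against 382 and 345 CPM in proliferative ones. The states did not overlap, and Rps27l fell by 0.36 (edgeR adjusted p = 0.0425) in the mutant and by 0.62 (adjusted p = 0.00257) in the wildtype; its parent row Rps27 was among those listed near 0.

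Rpl39l, best known from male germ cells, differed between the quiescent lines of both genotypes, and more so in the mutant. It had 6.41 and 21.1 CPM in the quiescent sums of mutant replicates 1 and 2, against 6.84 and 10.2 CPM at day 2, and 4.38 and 7.67 CPM in those of wildtype replicates 1 and 2, against 9.55 and 10.1 CPM at day 2. Mutant replicate 2 had 17.9, 23.4 and 23.4 CPM at days 8, 10 and 12, so its level was high in each of its quiescent libraries and not in 1 alone. The log2 change between states was 0.69 in the mutant and -0.70 in the wildtype, with SE of 0.579 and 0.578 (edgeR adjusted p = 0.386 and 0.365), and neither passed. Without mutant replicate 2 the mutant value was -0.08. Rps4y2, a low paralog of Rps4x, had 24.2 and 22.9 CPM in quiescent mutant lines, against 20.1 and 41.8 CPM in proliferative ones, and did not pass in either genotype.

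**Figure D3:**
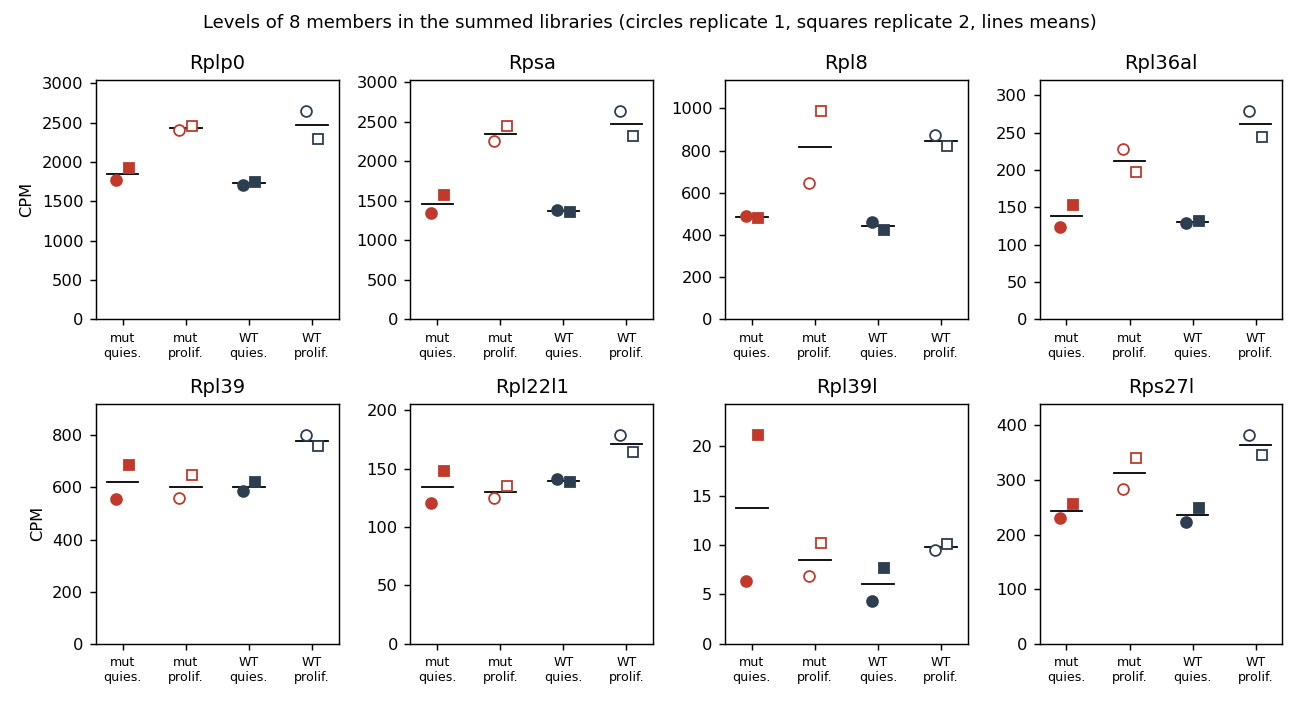
CPM of 8 members in the 8 summed libraries, in panels by gene: mutant (red) left of wildtype (dark blue), quiescent (filled) left of proliferative (open), circles for replicate 1, squares for replicate 2 and bars for the mean of the 2 lines. Rplp0, Rpsa, Rpl8, Rpl36al and Rps27l are lower in quiescence in both genotypes, Rpl39 and Rpl22l1 are lower in the wildtype and overlap in the mutant, and Rpl39l is high in the quiescent sum of mutant replicate 2 at 21.1 CPM.

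In proliferative cells the members were slightly lower in the mutant, in all 83 cases by value but in none past the threshold. The edgeR test of mutant against wildtype at day 2 called 0 members (DESeq2 also 0), against 0.00635% of all genes, which is Plagl1 alone. The median log2 difference was -0.21, or -13.35%, with all genes at 0.00, and 18 members had an unadjusted p under 0.05, against 2.87% of all genes. Members move together, so these 18 are not independent of each other. The median was -0.10 without wildtype replicate 1, the line with the highest share at day 2, and -0.30 without wildtype replicate 2. Rps28 had 464 and 501 CPM in mutant lines, against 665 and 629.6 CPM in wildtype lines, a log2 difference of -0.42 (SE 0.112, unadjusted p = 0.0038, edgeR adjusted p = 1). Rps29, a zinc-binding protein of the small subunit, had 659 and 738 CPM in mutant lines, against 986 and 894 CPM in wildtype lines, a difference of -0.43 (SE 0.113, unadjusted p = 0.00384, edgeR adjusted p = 1). Neither overlapped between genotypes. The next by p were Rpl22l1 at -0.40, Rpl39 at -0.37 and Rpl38, which in mice is needed for the translation of Hox mRNAs, at -0.31.

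In the quiescent sums 0 members passed (DESeq2 also 0), against 0.00635% of all genes, with 0 at an unadjusted p under 0.05, against 0.483% of all genes. The median log2 difference was 0.05, and 76 of the 83 were positive. Without mutant replicate 2 the median was -0.04. The 5 with the lowest p were Rpl39l at 1.19 (SE 0.575, edgeR adjusted p = 1), Rps23 at 0.12, Rpl18 at 0.11, Rpl10 at 0.13 and Rpl34 at -0.26. The value of Rpl39l rests on mutant replicate 2, as its levels show.

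The direct test of whether the genotypes differ in their response to quiescence, the interaction, called 0 members (DESeq2 also 0), against 0% of all genes in edgeR. The median interaction was 0.26 on the log2 scale, with 82 of 83 members positive and all genes at 0.01, and 4 members had an unadjusted p under 0.05, against 1.68% of all genes. These were Rps29 at 0.39 (SE 0.16, edgeR adjusted p = 1), Rps28 at 0.37, Rps25, which is known for its part in initiation at viral internal entry sites, at 0.39, and Rpl39 at 0.41, followed by Rpl38 at 0.35. All comparisons of genotype and state share the same 8 summed libraries, so the lower day 2 values of the mutant and the smaller decrease in the mutant are not separate results. The median of the interaction was 0.05 with day 8 alone as the quiescent harvest, 0.45 with day 10 alone and 0.19 with day 12 alone.

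Day by day, the genotype difference of the members changed sign. At day 2 both mutant lines lay below both wildtype lines for 53 of the 83 members, against 11.8% of all 15439 genes, and above for 0, against 11.7%, with a median log2 difference of -0.22. At day 8 it was below for 50, against 17.8%, and above for 1, Rpl3, against 17.2%, with a median of -0.14. At day 10 it was below for 0, against 17.5%, and above for 66, against 22.7%, with a median of 0.22 and all 83 members positive. At day 12 it was below for 5, against 11.6%, and above for 2 of the rows listed near 0 (Rpl30 and Rps27), against 9.50%, with a median of 0.01. No single member passed the edgeR test on any day, against 0.00648% of all genes on each of the 4 days; 5, 6, 21 and 0 members had an unadjusted p under 0.05 at days 2, 8, 10 and 12, against 1.88%, 1.79%, 9.76% and 1.47% of all genes. The change of the difference from day to day was not tested.

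Single genes show the same order of days. Rpl38 had 411 and 449 CPM in mutant lines, against 560.1 and 511 CPM in wildtype lines, at day 2, and 269 and 362 CPM, against 386 and 410.5 CPM, at day 8. At day 10 it had 440.2 and 417 CPM in mutant lines, against 333 and 328 CPM in wildtype lines, and at day 12 it had 288 and 439 CPM, against 353 and 352 CPM. The genotypes were thus apart in opposite directions at days 8 and 10 and overlapped at day 12. Rps2 had 674 and 672 CPM in mutant lines, against 865 and 736 CPM in wildtype lines, at day 8, and 869 and 879 CPM, against 619 and 648 CPM, at day 10. Rps19bp1 had the largest log2 difference among members other than Rpl39l at day 10, 0.83.

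**Figure D4:**
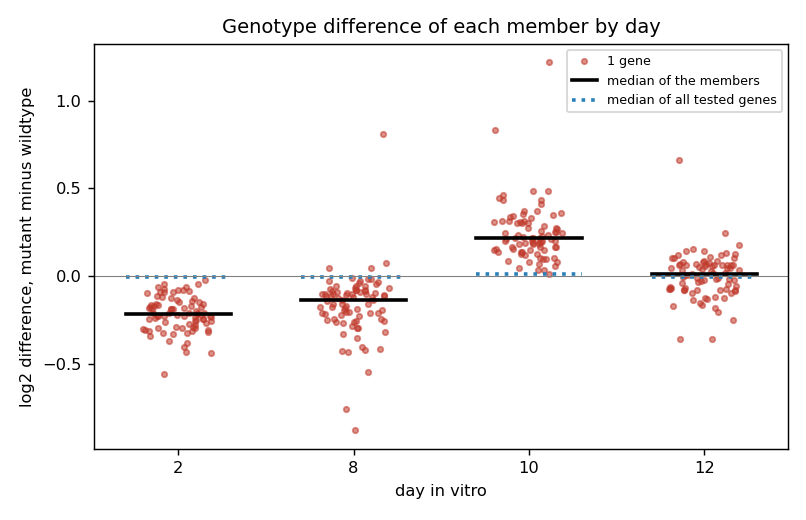
Log2 difference, mutant minus wildtype, of each of the 83 tested members at days 2, 8, 10 and 12 in vitro; points are genes, black bars the median of the members and dotted bars that of all tested genes. The member medians are -0.22, -0.14, 0.22 and 0.01 on these days, and the highest point at days 8, 10 and 12 is Rpl39l.

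Set against its own day 2 library, the median member stood at 73.6%, 84.6% and 62.5% in mutant replicate 1 at days 8, 10 and 12, and at 77.2%, 84.4% and 81.3% in mutant replicate 2. In wildtype replicate 1 it stood at 67.5%, 59.1% and 58.0%, and in wildtype replicate 2 at 76.6%, 66.7% and 65.2%. Both wildtype lines were lower at each later day, while both mutant lines had their highest quiescent value at day 10. From day 8 to day 12, 0 members passed the edgeR test in the mutant, against 1.09% of all genes, with 52 of 83 negative, a median of -0.04 and 4 at an unadjusted p under 0.05, against 8.74% of all genes. In the wildtype 0 passed, against 0.816% of all genes, with 82 of 83 negative, a median of -0.21 and 18 at an unadjusted p under 0.05, against 7.86% of all genes. DESeq2 called 1 member in the mutant, Rpl12, against 2.31% of all genes, and 2 in the wildtype, Rpl12 and Rps26, against 1.98%. With the line as a block, edgeR called Rps26 in the wildtype (log2 change -0.49, adjusted p = 0.0403), against 1.97% of all genes. The counts of members at an adjusted p under 0.05 are near the shares of all genes. The 18 wildtype members at an unadjusted p under 0.05 lie above the share of 7.86%, and members are not independent of each other. Rpl12 is part of the stalk base. It had 1036, 1086 and 759 CPM in mutant replicate 1 at days 8, 10 and 12, and 1036, 1135 and 653 CPM in mutant replicate 2. In wildtype replicate 1 it had 1216, 852 and 815 CPM, and in wildtype replicate 2 it had 1019, 896 and 721 CPM. Each line had less at day 12 than at day 8. All 19 cycling cell markers were lower at day 12 than at day 8 as well, with a median log2 change of -0.82 in both genotypes. The edgeR test called 13 of them in the mutant and 12 in the wildtype, against 1.09% and 0.816% of all genes. The quiescent harvests were thus not uniform in these markers, and their part in the change of the members was not tested.

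The late values of the mutant differed between its lines. Without the day 12 library of replicate 2, day 12 of the mutant is replicate 1 alone. Then 80 of the 83 members were negative from day 8 to day 12 in the mutant, with a median of -0.27. The median was 0.11 without mutant replicate 1, with 28 negative, and -0.19 without mutant replicate 2, with 74 negative. Between states in the mutant, 49 members passed without the day 12 library of replicate 2, against 21.9% of all genes. Of the 49, 44 were among the 46. In this library, after its median over the members was taken out, Rpl36 lay at -0.87 on the log2 scale against its mean over the 16 libraries, Rplp2 at -0.78, Rpl8 at -0.75, Rplp1 at -0.74, Rpl27a at -0.69 and Rpl12 at -0.68. Rpl39 lay at 0.37 and Rps15a at 0.30. These deviations had a Pearson r of -0.44 with the GC content of the transcript over 73 genes. A similar r of -0.48 was found in the day 8 library of the same line, where the SD was 0.0705, while r was 0.38 and 0.34 in its day 2 and day 10 libraries. In numbers, Rpl36 had 164 CPM there, against 279.6 and 361 CPM in the same line at days 8 and 10 and 239.7 CPM in mutant replicate 1 at day 12. Whether RNA quality or the composition of the library moved with it was not tested.

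**Figure D5:**
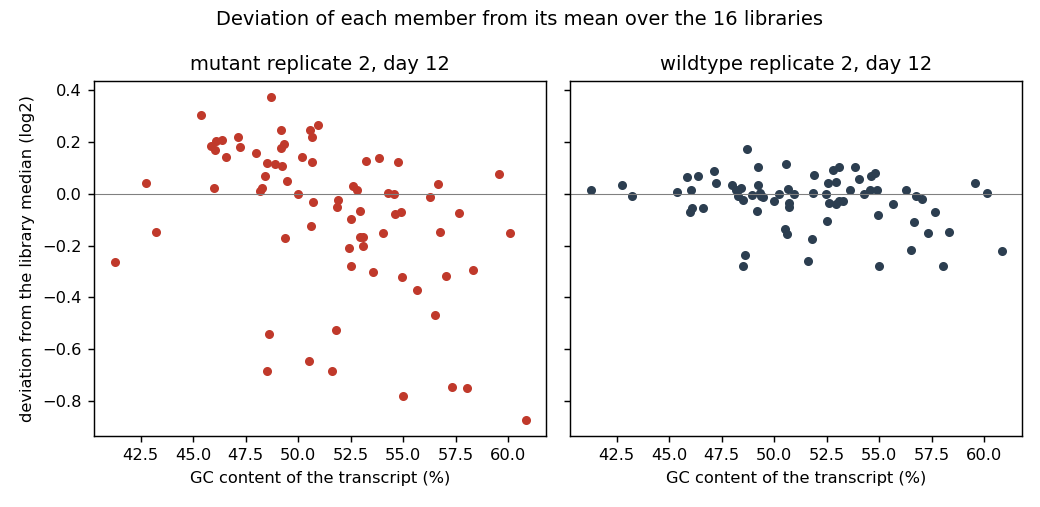
Deviation of 73 subunit genes (log2) from their mean over the 16 libraries, after the median of the library was taken out, against the GC content of the transcript (%), in the day 12 libraries of mutant replicate 2 (left) and wildtype replicate 2 (right). The SD is 0.29 in the left panel and 0.0999 in the right one, and the lowest point on the left is Rpl36 at -0.87.

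Other genes of the pathway changed in the same direction between states. Of 63 ribosome biogenesis factors, which process ribosomal RNA and assemble the subunits, 57 fell in the mutant and 58 in the wildtype, with medians of -0.95 and -1.13, below those of the ribosomal protein genes themselves. Nop56, a core protein of the box C/D particles, changed by -1.53 and -1.82, and Nop2, an rRNA methyltransferase, by -1.57 and -1.66. Of 76 mitochondrial ribosomal protein genes, 32 fell and 1 rose in the mutant and 56 fell in the wildtype, with medians of -0.34 and -0.56. Of 33 initiation factors 20 and 24 fell, with medians of -0.53 and -0.55, and of 7 elongation factors 4 and 5 fell. Of all tested genes, 21.0% fell in the mutant and 23.7% in the wildtype.

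Fau, which encodes a further protein of the small subunit and falls outside the symbol rule, changed by -0.31 in the mutant (SE 0.117, edgeR adjusted p = 0.0585) and by -0.61 in the wildtype (SE 0.117, adjusted p = 0.00201). Gnb2l1, now Rack1, a scaffold on the small subunit, fell by 0.55 and 0.72.

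Among 27 genes that control growth and ribosomal protein expression, 6 fell and 4 rose in the mutant, and 8 fell and 5 rose in the wildtype. Of all genes, 21.0% fell and 21.1% rose in the mutant and 23.7% and 23.9% in the wildtype, so the counts of this list lay near these shares. Myc had 23.1 and 20.2 CPM in quiescent mutant lines, against 56.5 and 73.9 CPM in proliferative ones, and 21.4 and 18.0 CPM in quiescent wildtype lines, against 69.7 and 74.8 CPM in proliferative ones. It fell by 1.59 (SE 0.154, edgeR adjusted p = 3.81e-05) in the mutant and by 1.88 (SE 0.155, adjusted p = 1.16e-05) in the wildtype. Pdcd4, an inhibitor of the helicase Eif4a1 that is degraded when mTOR signals, rose by 1.63 in the mutant and 1.89 in the wildtype, and Mxd4, a partner of Max that opposes Myc, by 1.44 and 1.78. Of 13 chaperones of ribosomal proteins 9 and 11 fell. Of 9 genes of ribosomal stress and p53, 2 fell and 5 rose in the mutant and 3 fell and 5 rose in the wildtype; Sesn1, a p53 target that restrains mTOR, rose by 1.13 and 1.31. None of the genes in these lists passed between genotypes in either state. At day 2 the mitochondrial ribosomal protein genes had a median log2 difference of -0.12, mutant minus wildtype, with 68 of 76 negative. Ribosome biogenesis factors had -0.14, with 56 of 63 negative. The interaction medians of these lists were 0.21 and 0.195, and that of the cycling cell markers was 0.18. So these lists shared the direction of the ribosomal protein genes. The 27 growth control genes went the other way, at 0.07 and -0.04.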

How the data were processed

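The authors deposited raw read counts per gene for 16 libraries, as whole numbers without normalization. RNA was DNase-treated and libraries were made with a stranded kit, per the labels' protocols. The submitters' processing notes name the build mm9 and, as tools, HTSeq 0.6.1p1, TopHat2 2.1.1 with Bowtie2 2.2.9, and bcl2fastq 2.18; of annotation, strand setting and reads with several matches the sources used here say nothing. The table had 0 columns of other samples.

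Quiescent harvests (days 8, 10 and 12) of each line were summed, giving 8 libraries in 4 groups of genotype and state. All genes kept by filterByExpr (15740) were fitted with edgeR 4.0.16 (R 4.3.3, TMM, robust quasi-likelihood, 4 residual degrees of freedom), Benjamini-Hochberg adjusted over all of them and called under 0.05. SE is the size of the log2 fold change divided by the root of F. Days were compared in a fit of 16 libraries (15439 genes, 8 residual degrees of freedom), which counts harvests of 1 line as independent. CPM are counts per 1e6 of the TMM-scaled library. The fit was tested on simulated data before use.

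The same lines were harvested in every state and day, so lines pair those comparisons by design (deviations of 1 line correlated across states with 0.248 in the mutant and 0.196 in the wildtype); the blocked fit is an alternative. P-values measure the spread between lines only, 2 per genotype. Libraries of a group differed beyond counting error, at 32.4 to 69.6 chi-square units per degree of freedom. Floors of 3 counts cover counting error only. The SE comes from the same quasi-likelihood fit as the p-values and is not limited to counting error.

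Lengths and GC come from GENCODE M21 and starts from the RefSeq table, matched by gene ID and symbol; both are on GRCm38 and were not used with mm9 positions. Members and gene lists were chosen with earlier results of these data known. Members named with values were, by rule, the 6 largest and 6 smallest changes between states in each genotype, those opposite to the median, the 6 highest per kilobase, paralogs with their parents, the 5 lowest p of each genotype comparison and those at 0; the others were chosen for their known roles or after their values were seen. Alternatives were RLE, upper quartile, library totals, TMM without the members, DESeq2 1.42.0, other filters, each line left out, a line block, single quiescent days and, chosen after seeing the data, the day 12 library of mutant replicate 2 left out.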

Additional observations from a re-analysis of the deposited data

How the results depend on the processing

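The negative median between states held under all alternatives in both genotypes. Calls in the wildtype were 66 to 79 of 83 except when wildtype replicates were left out (range over left-out lines 32 to 79), and calls in the mutant 35 to 55 except with day 10 alone (26; the cause was not tested) or a mutant line left out (range over left-out lines 21 to 40), which compares fewer lines. With the line as a block (replicate block), 77 members passed in the wildtype and 43 in the mutant, 76 and 42 of them shared with the fit without it. In the blocked fit, 3624 of all 15740 genes were lower in the wildtype and 3206 in the mutant. With day 8 alone, 66 members passed in the wildtype and 55 in the mutant, against 3381 and 3312 of all 14884 genes. With at least 50 counts in every group, 73 and 35 members passed, against 3247 and 2920 of all 11738 genes. From day 8 to day 12 in the wildtype, DESeq2 called 2 and the replicate block 1. In the mutant DESeq2 called 1. When either mutant line was left out, the wildtype log2 change of Rplp2 from day 8 to day 12 was -0.53. Between genotypes and in the interaction 0 members passed under any alternative, and mutant and wildtype replicates of 1 number did not deviate together (correlation -0.0285 and 0.0112). Upper quartile and library totals moved the median of all genes between states in the wildtype to 0.12 and 0.15, with members at -0.55 and -0.52.

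Of 609 alternative values of 39 results for named members, 553 kept direction and side of the threshold, 27 lost the call, 4 gained it and 25 changed sign, all 25 among values that did not pass; the cause was not tested. For the change between states in the mutant, Rps28 turned to 0.0052 (upper quartile), 0.0024 (library totals), 0.037 (at least 50 counts) and 0.17 (day 10 alone). Rpl30 turned to -0.0040 (RLE), -0.014 (TMM without the members), -0.0053 (DESeq2), -0.016 (replicate block), -0.93 (day 8 alone), -0.061 (without the day 12 library of mutant replicate 2) and, with lines left out, -0.25 to 0.22. Rpl39 turned to -0.11 (day 8 alone) and -0.044 (without that library), Rpl22l1 to -0.048 (day 8 alone), -0.026 (without that library) and, with lines left out, -0.038 to 0.10, Rps27 to -0.021 (day 8 alone) and, with lines left out, -0.044 to 0.56, and Rpl39l to -0.082 to 1.03 with lines left out. Rpl18 at quiescence between genotypes turned to -0.083 (day 8 alone) and -0.013 (day 12 alone), Rpl34 to 0.30 (day 10 alone), and Rpl38 in the interaction to -0.038 (day 8 alone). With 2 lines a genotype, the median SE of a member was 0.121 between states.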
